A study of Homo sapiens with 5 samples.

Results

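The 2 lists described here hold every ChIP-seq summit of KAT7 and of acetylated histone H3 lysine 27 (H3K27ac) deposited for HCT116 cells that had received an siRNA against ENO1-IT1. All summits of both lists were taken, without selection: 24611 for KAT7 and 31839 for H3K27ac, together 56450 of the 209263 summits in the series. HCT116 is a human colorectal cancer cell line. ENO1-IT1 is a long noncoding RNA whose name refers to an intronic transcript of ENO1, which encodes the glycolytic enzyme enolase. The cells were collected 48 h after transfection, and each immunoprecipitation gave 1 library. The control siRNA lists of the same marks (122439 KAT7 and 29429 H3K27ac summits, also 48 h) and a list of 945 summits from input DNA, whose siRNA the labels do not give, serve for comparison. Transcript levels were not measured here, so the extent of the knockdown was not checked, and every statement on condition rests on the sample titles. The peak names of control and knockdown libraries alike start with the code KO, which therefore does not separate the conditions, and an exchange of titles would turn each direction given. With 1 library per group there is no replicate error, and no difference between conditions was tested.

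KAT7, also called HBO1, is the catalytic subunit of a MYST-family acetyltransferase complex. Its partner proteins of the BRPF and JADE families direct it to different lysines of histones H3 and H4, and it is known for work at transcribed genes and in the licensing of replication origins. H3K27ac is placed mainly by the other acetyltransferases p300 and CBP and marks active promoters and enhancers, so KAT7 and H3K27ac need not lie at the same places. A summit is the 1 bp position of highest signal within a peak. The score of each summit is the authors' -log10 of a p or q value. It was used to rank summits within a list only, because it also depends on sequencing depth, which is unknown here. The lists come from separate immunoprecipitations of many cells. Summits of both marks at 1 position therefore do not show that both were present in the same cell. Positions are hg19. No hg19 annotation was used, so positions were not assigned to genes, promoters or enhancers.

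Most KAT7 summits after ENO1-IT1 siRNA lay far from H3K27ac, and a minority lay almost exactly on it. Of the 24611 KAT7 summits, 4676 (19.0%, 95% interval 18.5 to 19.5%) had an H3K27ac summit within 500 bp, and 2741 (11.1%, 10.7 to 11.5%) had one within 50 bp. Exact Clopper-Pearson intervals are given throughout and cover counting error only. Windows of 500 bp on either side of the H3K27ac summits covered 1.01% of the 3009 Mb spanned by both lists. The median distance from a KAT7 summit to the nearest H3K27ac summit was 41885 bp, and 8445 KAT7 summits (34.3%) lay more than 100 kb away. From the other side, 4541 of the 31839 H3K27ac summits (14.3%, 13.9 to 14.7%) had KAT7 within 500 bp, and 8.61% (8.30 to 8.92%) had it within 50 bp. The KAT7 windows covered 0.803% of the span. In the control pair of lists, 3.67% of KAT7 summits had H3K27ac within 500 bp and 1.72% within 50 bp, and 14.8% and 7.14% of H3K27ac summits had KAT7 within these distances. The low control KAT7 shares have the long control KAT7 list as their denominator. Of the 945 input summits, 4.13% (2.95 to 5.60%) had a knockdown H3K27ac summit within 500 bp and 8.25% (6.58 to 10.2%) a knockdown KAT7 summit, so input positions met H3K27ac less often than KAT7 positions did.

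The distances fell into a narrow group and a broader one. Among the KAT7 summits with H3K27ac within 50 bp, the median distance was 7 bp, 1129 lay within 5 bp and 155 had the identical position. Beyond 50 bp the number of KAT7 summits did not decline steadily. It was 126 at 130 to 149 bp, 148 at 150 to 169 bp, 188 at 170 to 189 bp and 158 at 190 to 209 bp, and then 95 at 210 to 229 bp and 58 at 230 to 249 bp. This shoulder moved with the H3K27ac list and not with the KAT7 list. When the same KAT7 summits were measured against the control H3K27ac list, the numbers were 160 at 150 to 169 bp, 96 at 170 to 189 bp and 54 at 190 to 209 bp, so that the drop came near 170 bp. Control KAT7 summits measured against knockdown H3K27ac gave 194 at 170 to 189 bp, 206 at 190 to 209 bp and 110 at 210 to 229 bp, with the drop again at 210 bp. Against control H3K27ac they gave 222 at 150 to 169 bp, 113 at 170 to 189 bp and 89 at 190 to 209 bp. KAT7 summits within 50 bp of H3K27ac are called coincident here, and those 51 to 500 bp away adjacent.

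**Figure D1:**
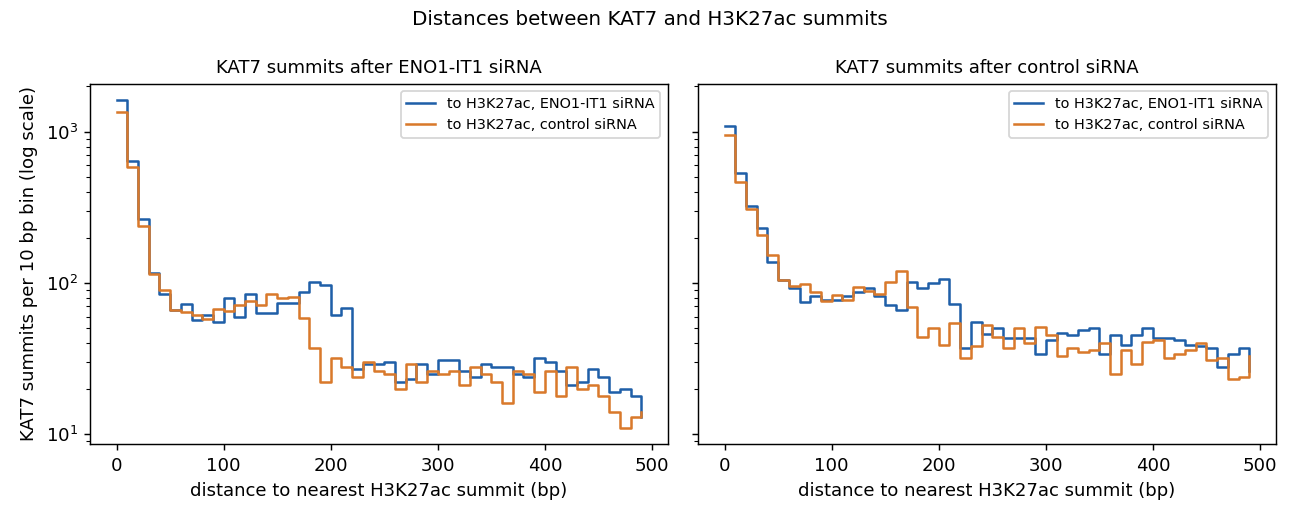
Number of KAT7 summits (log scale) per 10 bp bin of distance to the nearest H3K27ac summit, for KAT7 after ENO1-IT1 siRNA (left) and control siRNA (right), each against the H3K27ac list of both conditions. All curves are highest below 10 bp, and the shoulder ends near 170 bp against the control H3K27ac list and near 210 bp against the knockdown list.

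Coincident and adjacent KAT7 summits differed in score. The 2741 coincident summits had a median KAT7 score of 39.5 (quartiles 19.9 and 65.7), against 6.76 (4.09 and 13.6) for the 1935 adjacent ones and 7.67 (5.53 and 11.6) for the 19935 with no H3K27ac within 500 bp. Scores of the H3K27ac summits beside them did not differ in this way, with a median of 9.93 in both groups, against 8.02 in the whole H3K27ac list. Within the coincident pairs the scores of both marks went together, with a Spearman rho of 0.66 over 2741 pairs. In the adjacent pairs rho was 0.04 over 1935 pairs. The 666 of these at 51 to 150 bp had a rho of 0.22 and a median KAT7 score of 9.51. The 1269 further apart had a rho of -0.04 and a median KAT7 score of 5.83. Within the adjacent pairs rho was thus lower at the greater distances, and the division at 50 bp is not a sharp break in it. These correlations run over positions of the same pair of libraries, which are not independent, and are given as a description. Of the coincident KAT7 summits, 1377 (50.2%) belonged to sites where the control KAT7 and control H3K27ac lists also had a summit within 50 bp. Without these, rho was 0.33 over the 1364 remaining coincident pairs. In the control lists rho was 0.48 over 2102 coincident and 0.14 over 2390 adjacent pairs. Among these adjacent control pairs, rho was 0.29 for the 893 at 51 to 150 bp and 0.04 for the 1497 further apart.

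**Figure D2:**
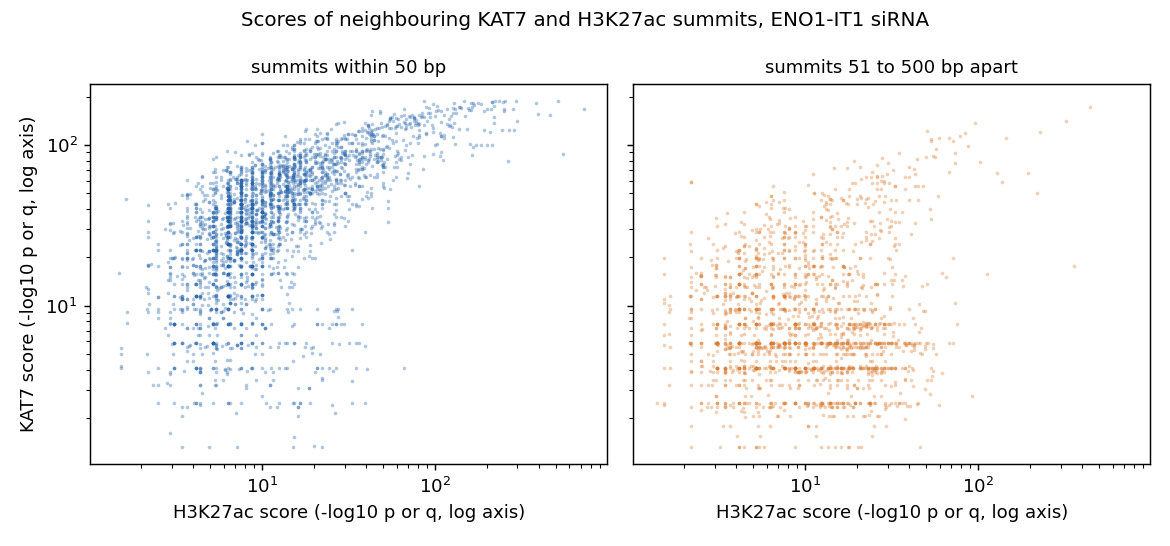
Score of each KAT7 summit against the score of the nearest H3K27ac summit in the ENO1-IT1 siRNA lists (both axes logarithmic, 1 point per KAT7 summit), for summits within 50 bp (left, 2741 points) and 51 to 500 bp apart (right, 1935 points). The coincident points form a rising band, with a rho of 0.66, and the adjacent points mostly fill a cloud at low KAT7 scores, with a rho of 0.04.

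The share of KAT7 summits with H3K27ac depended strongly on KAT7 rank, and not in 1 direction. When the list was divided into 10 equal classes by score, 74.6% (72.8 to 76.3%) of class 1, with the highest scores, had H3K27ac within 500 bp. In a class 1 formed anew without the sites common to all 4 immunoprecipitated lists, the share was 39.2%. With these sites kept, the share was 26.7% (24.9 to 28.5%) in class 2 and 14.6% in class 3. It was lowest in class 6, at 7.68% (6.66 to 8.80%), and then higher again at 12.5% (11.2 to 13.9%) in class 9 and 18.7% (17.2 to 20.3%) in class 10, with scores of 1.31 to 4.09. The classes at both ends were unlike. In class 1 the coincident summits made up 67.4% of the class and the adjacent ones 7.19%. In class 10 the coincident ones made up 3.62% (2.91 to 4.43%) and the adjacent ones 15.1% (13.7 to 16.6%). The H3K27ac summits beside the adjacent KAT7 of class 10 had a median score of 11.1, above the 8.02 of the whole H3K27ac list. The strongest KAT7 summits thus lay on H3K27ac summits, whereas the weakest ones near H3K27ac mostly lay at its flank. Tied scores limit the division into classes, since 3074 knockdown KAT7 summits shared the score 5.83, in classes 7 and 8. Every boundary between neighbouring classes of this list split tied scores, such as 31.2 between classes 1 and 2 and 4.09 between classes 9 and 10. Classes 7 and 8, at 8.21% (7.15 to 9.36%) and 7.76% (6.73 to 8.89%), cannot be told from class 6.

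At the top of the KAT7 list the share was close to complete. Among the 100 highest-scored KAT7 summits 99 had H3K27ac within 500 bp, among the highest 500 there were 495, and among the highest 1000 there were 952 (95.2%, 93.7 to 96.4%). It was 50.1% for the highest 5000 and 31.1% for the highest 10000. In the control lists the corresponding shares were 68 of 100, 213 of 500 and 31.8% (28.9 to 34.8%) of 1000. The control KAT7 list is longer and has lower scores, with 43.2 at its position 100 and 136 in the knockdown list. The part of list length and score level in this gap was not tested.

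**Figure D3:**
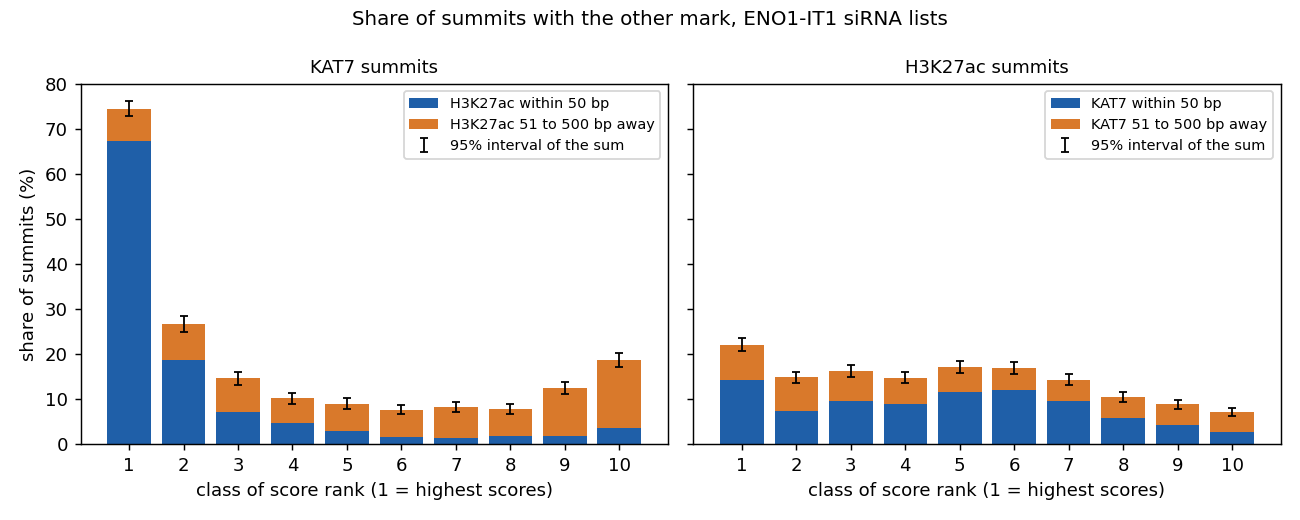
Share of summits (%) with the other mark within 50 bp (blue) and 51 to 500 bp away (orange) in 10 equal classes of score rank, for KAT7 (left) and H3K27ac (right) after ENO1-IT1 siRNA, with exact 95% intervals of the sum. KAT7 shows a high class 1 at 74.6% and a smaller, mostly adjacent upturn to 18.7% in class 10, while H3K27ac stays between 7.10% and 22.1%.

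For H3K27ac the dependence on rank was weaker. Of class 1 of the H3K27ac list, 22.1% (20.6 to 23.6%) had KAT7 within 500 bp. With both lists restricted to scores of at least 20 and ranked anew, class 1 held only 551 summits, and 40.1% of these had KAT7. In a class 1 formed anew without the sites common to all 4 immunoprecipitated lists, the share was 11.3%. In the full list the share lay between 14.3% and 17.2% in classes 2 to 7 and came down to 7.10% (6.23 to 8.05%) in class 10. Coincident KAT7 had a high in class 1, at 14.3% (13.1 to 15.6%). It was lower in class 2, at 7.44% (6.56 to 8.41%), and had another high in class 6, at 12.1% (10.9 to 13.2%). From there it came down to its lowest share, 2.61% (2.08 to 3.22%), in class 10. Adjacent KAT7 went from 7.79% in class 1 to 4.49% in class 10 without another high. The score of the partner also set the kinds apart. The median KAT7 score of coincident summits was 97.5 on H3K27ac class 1, 60.6 on class 2, 33.5 on class 5 and 11.3 on class 10, lower in each class than in the one before. That of adjacent KAT7 stayed between 5.83 and 9.25 in all 10 classes. The very strongest H3K27ac summits were an exception to the modest shares: 84 of the highest 100 had KAT7 within 500 bp, against 46.4% of the highest 500 and 23.8% of the highest 2500. In the control H3K27ac list these numbers were 91 of 100, 54.6% (50.1 to 59.0%) and 29.0% (27.2 to 30.8%), and its class 1 had KAT7 at 26.9% (25.3 to 28.6%). Of the 2741 coincident pairs, 1659 had KAT7 in KAT7 class 1 and 455 had H3K27ac in H3K27ac class 1. Shares taken from either side therefore have unlike denominators. Of the 455 coincident pairs with H3K27ac in class 1, 431 had KAT7 in class 1. Of the 1659 coincident KAT7 summits in KAT7 class 1, 26.0% lay on an H3K27ac summit of class 1, 50.9% lay on classes 2 to 5 and 23.1% on classes 6 to 10.

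Coincident KAT7 was found at solitary H3K27ac summits and seldom in dense stretches of them. Where the next H3K27ac summit lay more than 100 kb away, 858 of 2383 H3K27ac summits (36.0%, 34.1 to 38.0%) had a coincident KAT7 summit. The share was 16.4% (15.5 to 17.3%) at spacings of 20 to 100 kb, 10.5% (9.71 to 11.4%) at 5 to 20 kb, 3.49% (2.92 to 4.14%) at 2 to 5 kb, 2.01% at 1 to 2 kb, 1.13% at 500 to 1000 bp and 0.861% (0.414 to 1.58%) at up to 500 bp. Adjacent KAT7 varied far less, from 3.58% (3.08 to 4.14%) at 1 to 2 kb to 8.60% (7.91 to 9.33%) at 20 to 100 kb. The median H3K27ac score was 5.21 at spacings of up to 500 bp and 7.16 at 500 to 1000 bp, and lay between 8.71 and 9.18 at all spacings over 2 kb, where the coincident share went from 3.49% to 36.0%. Split by score, the share over 100 kb was 41.6% (38.9 to 44.3%) for H3K27ac classes 1 to 5 and 29.3% (26.6 to 32.1%) for classes 6 to 10, and at 500 to 1000 bp 1.51% and 0.834%. In H3K27ac class 1 alone, 60.2% (53.6 to 66.5%) of the 236 summits spaced over 100 kb had coincident KAT7, against 2.01% (1.22 to 3.13%) of the 943 spaced up to 2 kb.

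The same gradient held without the sites common to all 4 immunoprecipitated lists, at a lower level. It then ran from 0.935% at up to 2 kb, through 4.09% at 2 to 20 kb and 9.14% at 20 to 100 kb, to 19.2% (17.5 to 21.1%) at over 100 kb. Removing these sites lowers the shares by construction. With scores of at least 20 in both lists, spacing was measured anew between the remaining H3K27ac summits. The share at over 100 kb was then 22.1% of 1911 summits, a set defined otherwise than the one above. The control lists gave a like gradient of coincident KAT7, from 1.48% (1.06 to 2.01%) at up to 500 bp to 32.5% (30.5 to 34.5%) at over 100 kb. The pattern was thus present with either siRNA. Grouped another way, H3K27ac summits at most 2 kb apart were joined into clusters. Of the 17328 summits that stood alone, 14.6% (14.1 to 15.2%) had coincident KAT7. Of the 4881 clusters of 2 summits, 2.81% (2.36 to 3.31%) did at any of their summits, and of the 367 clusters of 4 to 18 summits, 3.27% (1.70 to 5.64%). The highest H3K27ac score within a cluster had a median of 14.9 for clusters of 4 or more and 9.06 for lone summits. A highest value taken over more summits tends to be larger by construction.

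**Figure D4:**
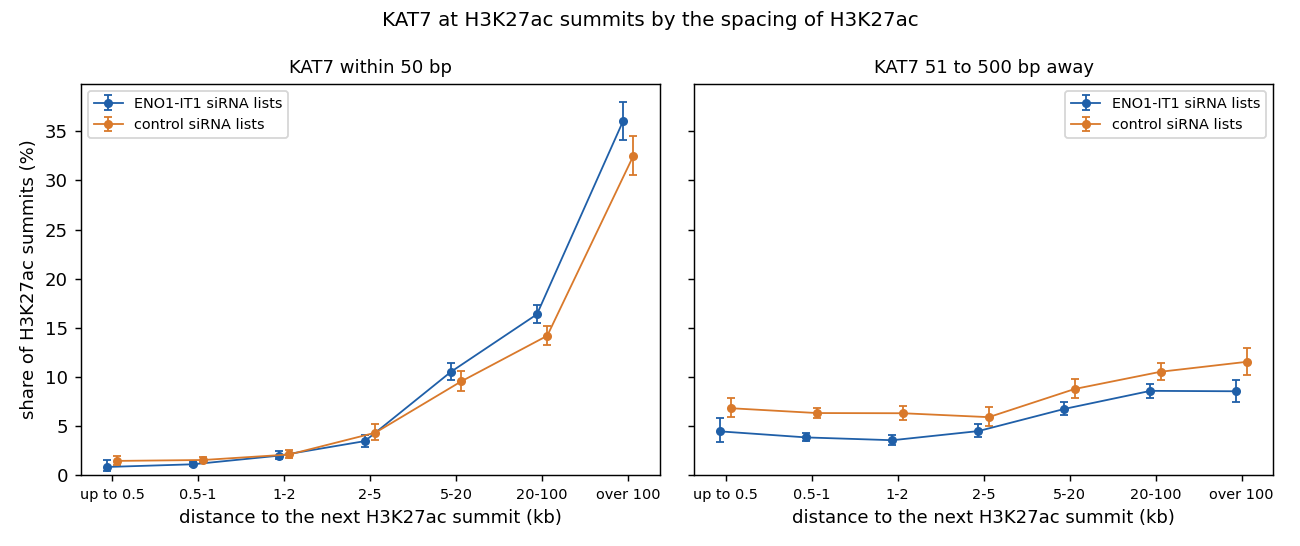
Share of H3K27ac summits (%) with a KAT7 summit within 50 bp (left) and 51 to 500 bp away (right), by the distance in kb to the next H3K27ac summit of the same list, for the ENO1-IT1 siRNA lists (blue) and the control siRNA lists (orange), with exact 95% intervals. The left curves climb to 36.0% and 32.5% at over 100 kb, while the right curves stay below 12%.

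Adjacent KAT7 summits had other surroundings. H3K27ac summits were listed on both sides within 1000 bp at 221 of the 1935 adjacent KAT7 summits (11.4%, 10.0 to 12.9%) and at 53 of the 2741 coincident ones (1.93%, 1.45 to 2.52%). Sides were counted from the KAT7 summit, and H3K27ac at the identical base, as at 155 coincident summits, counted for neither. An adjacent KAT7 summit can meet this rule with H3K27ac summits further apart than a coincident one can. The definition thus favours the adjacent share. The H3K27ac summit nearest to an adjacent KAT7 summit had its own next neighbour at a median of 14271 bp, against 46486 bp for coincident KAT7 and 2712 bp in the whole H3K27ac list. The sides were nearly balanced, with 1027 adjacent KAT7 summits at a higher and 908 at a lower chromosome position than the H3K27ac summit. At the edge of the 500 bp window, the median KAT7 score was 5.83, the most frequent tied score, both for the 94 summits at 451 to 500 bp and for the 66 at 501 to 550 bp. The median H3K27ac score was 11.4 for the 94 H3K27ac summits with KAT7 at 451 to 500 bp and 8.71 for the 83 at 501 to 550 bp.

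The spread over chromosomes depended on the list taken as the denominator. Over the 23 chromosomes 1 to 22 and X, the coincident share of KAT7 summits ran from 7.97% (6.30 to 9.92%) on chromosome 14 to 14.2% (11.95 to 16.7%) on chromosome 19. The adjacent share ran from 5.19% (4.06 to 6.52%) on chromosome X to 16.3% (13.9 to 18.9%) on chromosome 19. Chromosome 17, like chromosome 19 known to be rich in genes, had the next highest adjacent share at 13.3%. There were fewer coincident than adjacent KAT7 summits on chromosomes 14, 17 and 19, with 73 and 76, 88 and 106, and 124 and 142. On chromosomes X and 4 the coincident ones were 2.17 and 2.14 times as many. As a share of H3K27ac summits, coincident KAT7 was lowest on chromosome 17, at 4.26%, and highest on chromosome X, at 16.7%, whereas adjacent KAT7 ran from 4.30% on chromosome 12 to 8.03% on chromosome 18. Per KAT7 summit the adjacent share thus had the wider range, and per H3K27ac summit the coincident share. Chromosomes share their library and carry unlike numbers of H3K27ac summits (2068 on chromosome 17 and 898 on X), so these ranges are a description.

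The summits of both lists were joined into 50770 loci, in which neighbouring summits lay at most 500 bp apart. Both marks were found at 4447 loci (8.76%), KAT7 alone at 19587 (38.6%) and H3K27ac alone at 26736 (52.7%). Of the loci with both, 4129 held exactly 1 summit of each mark, and their median extent was 20 bp. The most crowded ones lay at chr15:92292565-92293905 with 4 KAT7 and 3 H3K27ac summits, and at chr10:133455551-133456697 and chr13:79175747-79176636 with 4 KAT7 and 2 H3K27ac summits each.

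Loci with both marks were the ones most often found in the control lists too. In the control, 55.6% (54.1 to 57.1%) of them had both marks within 500 bp, 15.8% KAT7 alone, 16.1% H3K27ac alone and 12.5% (11.5 to 13.5%) neither. Of the KAT7-alone loci, 75.5% (74.9 to 76.1%) had neither mark in the control, 20.9% had KAT7 alone and 2.09% both. Of the H3K27ac-alone loci, 59.7% (59.1 to 60.3%) had H3K27ac alone in the control, 34.6% neither and 3.87% both. For reference, 32.2% of all knockdown KAT7 summits had a control KAT7 summit and 64.3% of all knockdown H3K27ac summits a control H3K27ac summit. In the other direction, the control lists formed 4156 loci with both marks, 2.89% of 143729. After ENO1-IT1 siRNA 2481 of these (59.7%) had both marks, 1041 (25.05%) H3K27ac alone, 362 (8.71%) KAT7 alone and 272 (6.54%) neither. The control KAT7 list is the longer one, and its depth is unknown, so these counts show which positions were listed and not how occupancy changed.

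**Figure D5:**
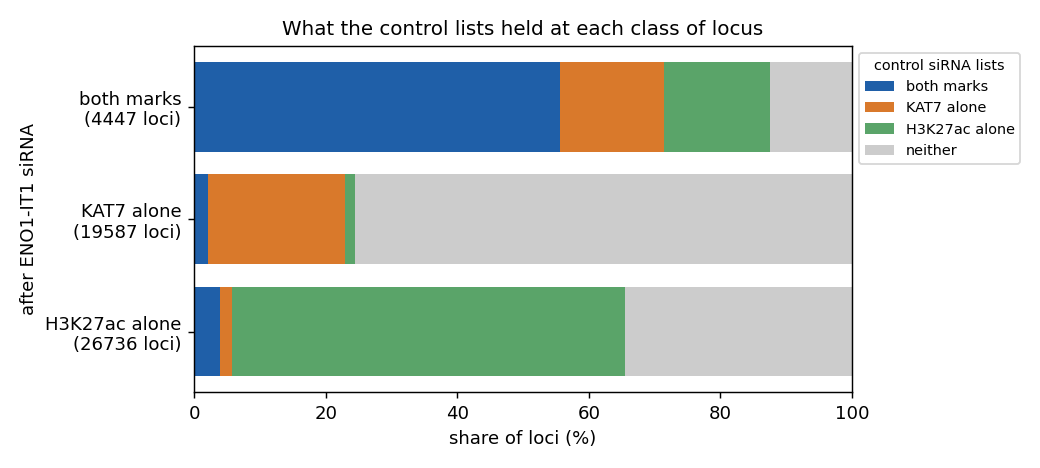
What the control siRNA lists held within 500 bp of each class of locus after ENO1-IT1 siRNA, as a share of loci (%). Of the loci with both marks, 55.6% had both in the control, whereas 75.5% of the KAT7-alone loci had neither.

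Seen from KAT7, acetylation was listed in one condition alone at a minority of the strong summits. Of the 2462 KAT7 summits of class 1, 1515 (61.5%, 59.6 to 63.5%) had H3K27ac within 500 bp in both H3K27ac lists, 321 (13.0%, 11.7 to 14.4%) in the knockdown list alone, 125 (5.08%, 4.24 to 6.02%) in the control list alone and 20.3% (18.8 to 21.99%) in neither. The median H3K27ac score was 7.50 in the knockdown-alone group and 7.31 in the control-alone group, near the medians of the whole lists, 8.02 and 7.14. Where both lists had H3K27ac, it was 17.5 after knockdown and 14.9 in the control. KAT7 scores of the knockdown-alone and control-alone groups were alike, at medians of 41.7 and 41.6. Over all knockdown KAT7 summits, H3K27ac was listed after knockdown alone at 1436 and in the control alone at 775. The knockdown H3K27ac list is the longer of the pair, and the KAT7 summits come from the knockdown library, so the excess is not a test of direction. KAT7 was listed in the control at 95.5% of the 1515 class 1 summits acetylated in both lists, and at 51.3% of those acetylated in neither, against 82.9% of class 1 as a whole. Those acetylated in both lists also had higher KAT7 scores, with a median of 63.0 against 37.7 for neither. The part of KAT7 score in this difference was not tested.

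The highest-scored KAT7 summits with H3K27ac were found in all 4 lists. The 10 highest scored 185 to 188, and 6 of them shared the highest score of 188. They lay on chr12:53892755 and chr12:119195547, chr19:4247644, chr2:1218358 and chr2:102402224, chrX:53935396, chr5:170016754, chr10:99438695, chr16:3899440 and chr14:77736076. The knockdown H3K27ac summit lay at most 20 bp from each, and at the identical base on chromosomes 5 and 14. All 10 also had a summit of each mark in the control within 500 bp, against 54.1% of all KAT7 summits with H3K27ac within 500 bp. Their H3K27ac scores were spread more widely, from 86.0 on chromosome 5 to 516 at chr2:1218338. No input summit lay within 1000 bp of any of the 10.

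The highest-scored H3K27ac summits with KAT7 lay at chr11:11268261 (score 727, with KAT7 13 bp away scoring 168), chr7:157254160 (score 554, KAT7 at 43 bp), chr2:1218338 (score 516, KAT7 at 20 bp) and chr18:22613623 (score 462, KAT7 at 27 bp). The next were at chr10:132158655, chr22:37725126, chr8:22254011, chr2:33141493 and chr2:88480832, and chr12:124577641. The next H3K27ac summit lay at least 7200 bp from each of the 10, with a median of 48537 bp. The summit at chr2:33141493 had the weakest KAT7 of these, scoring 17.7 at 160 bp, and an input summit lay 101 bp from it.

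The strongest KAT7 summits without H3K27ac were of 3 kinds. At 4 of the 10 highest, H3K27ac was listed 577 to 756 bp away, just outside the window. These lay at chr15:86440235 (score 170, rank 29 in the list), chr19:51002156 (score 106) and chr8:1781599 and chr8:67026461 (scores 106 and 103). At 4 others the control H3K27ac list had a summit at most 9 bp away, while the nearest knockdown one was far or outside the window. They lay at chrX:147763082, where knockdown H3K27ac was 167814 bp away, chr20:25841844 (164502 bp), chr7:153615674 (158630 bp) and chr4:38860415 (886 bp). The control H3K27ac scores there were 9.68, 4.48, 9.37 and 24.7, and the KAT7 scores 76.1, 72.8, 72.4 and 76.0. The last 2, at chr20:59524896 and chr7:142020871, had their nearest H3K27ac 29946 and 532035 bp away after knockdown, and 79221 and 582271 bp away in the control. Control KAT7 was not listed within 500 bp of them either. The grouping into kinds was made after the values were seen.

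The strongest H3K27ac summits without KAT7 included the same stretches seen from the acetylation side. The highest lay at chr15:86439658 (score 460, rank 5), 577 bp from the KAT7 summit of rank 29, and another at chr19:51002912 (score 134), 756 bp from the KAT7 summit there. The other 8 lay 11197 to 184120 bp from the nearest KAT7 summit. They were on chr1:16993582 and chr1:17066867 (scores 292 and 273), chr3:73160030, chr8:94858236 and chr8:94892173, chr16:69439483, chr12:66051534 and chr10:114279642. Of the 10, 8 had control H3K27ac within 500 bp and 1 had control KAT7 there. For reference, 85.8% of H3K27ac class 1 had control H3K27ac, and 5.68% of all H3K27ac summits without KAT7 had control KAT7. The counts of 10 are thus nothing particular to these sites. The next H3K27ac summit lay closer than at the sites with KAT7, at a median of 3191 bp and as near as 723 bp. An input summit lay 57 bp from the summit on chromosome 3.

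In the part of chromosome 1 where ENO1 is known to lie in this build, both marks were listed after knockdown. The H3K27ac summit at 8938973 scored 42.8 (rank 924 of 31839), and a KAT7 summit at 8939346, 373 bp away, scored 5.72 (rank 18361 of 24611). This pair belonged to the adjacent kind, with a weak KAT7 summit beside a strong H3K27ac one. The H3K27ac summits at 8933635 and 8935290, scoring 8.74 and 4.50, lay 5711 and 4056 bp from the nearest KAT7 summit.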

How the data were processed

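ChIP-seq libraries of H3K27ac, KAT7 and input DNA from HCT116 cells were deposited as 1 summit list each. Bowtie, MACS2 and the build hg19 are named, per the submitters' processing notes. For their versions, options and calling control, no information was found (not given in the sources used here). A tag in the peak names marks removal of duplicates. The authors deposited a -log10 score per summit, made from a p or q value, and did not state which. The lists give no read counts, so depth is unknown. Groups came from the sample titles.

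Distances to the nearest summit, rank classes (ties ordered by chromosome and position) and loci were computed in Python 3.11.15 (SciPy 1.17.1, pandas 2.3.3, numpy 2.4.6) and drawn with matplotlib 3.10.9. The code was tested on simulated lists. Shares carry exact 95% intervals. No test was possible with 1 library per group. Named regions are the 10 highest-scored summits of each mark with and without the other mark within 500 bp. The 50 bp division, the spacing classes, clusters, control status of loci and the chromosome 1 stretch were chosen after seeing the data. The lists and measures were chosen with earlier results of these data known. Gene lists, promoters, cell markers and sequences were not analysed here, because no hg19 annotation or genome was used. Each main share was recomputed at 100, 250 and 1000 bp, with scores of at least 10 or 20, with equally long lists, with neighbouring summits merged, without summits within 1000 bp of input, without chromosome Y and, added later, without sites in all 4 immunoprecipitated lists.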

Additional observations from a re-analysis of the deposited data

How the results depend on the processing

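Values follow the order KAT7 summits with H3K27ac, H3K27ac summits with KAT7, class 1 of KAT7, class 1 of H3K27ac, and loci with both marks, reported as 19.0%, 14.3%, 74.6%, 22.1% and 8.76%. At 100 bp they were 12.4%, 9.60%, 69.9%, 15.5% and 5.73%. At 250 bp 16.4%, 12.5%, 19.6% and 7.62% moved beyond the counting interval (class 1 of KAT7 did not), and at 1000 bp 21.0%, 16.3%, 24.5% and 10.4%, likewise. With scores of at least 10 in both lists they were 16.3%, 11.6%, 84.3%, 26.8% and 7.26%, and of at least 20, 17.0%, 12.7%, 83.8%, 40.1% and 7.81%. Lists of equal length gave 16.5%, 16.0%, 72.8% and 23.7%, with loci within the interval. Merged summits gave 18.5% for KAT7 and otherwise values within the intervals, as did leaving out summits near input, or chromosome Y, for all 5 results. Without sites in all 4 lists, removed after seeing the data, they were 13.9%, 10.3%, 39.2%, 11.3% and 6.14%, lower by construction. The share of H3K27ac summits spaced over 100 kb with coincident KAT7 was 36.0%, and 24.7% and 22.1% at the score minimums of 10 and 20, where that at up to 2 kb was 1.12% and 0%, against 1.41%. Class 1 and the spacing classes change their members when lists are shortened, because ranks and spacings were then taken anew. No paired analysis was possible because each group held 1 library. Unknown depth limits every comparison of scores and list lengths between libraries.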
